A study of Mus musculus with 10 samples.

Results

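The genes described here are 10 members of the fibroblast growth factor (FGF) pathway, chosen by symbol among the 26888 genes measured by RNA-seq in the OP9 stromal cell line. They comprise the ligands Fgf2, Fgf7, Fgf10 and Fgf18, the receptors Fgfr1, Fgfr2 and Fgfr3, and the feedback inhibitors Spry2, Spry4 and Dusp6. OP9 is a single mouse line of the strain (C57BL/6xC3H)F2-op/op, established from the calvaria of op/op mice, newborn in the study's text but foetal in the labels, which lack functional macrophage colony-stimulating factor. The study asked how its transcriptome differs between reaggregates, pelleted after trypsin treatment and kept for 48 h on filters where medium meets gas, and flat submersed cultures. There were 6 reaggregates, of which 2, 4 and 6 received IL-3 at a labelled dose of 200 µg/µl and 1, 3 and 5 received none, and 4 flat cultures. The study's methods print this dose too, but its embryo cultures with IL-3 used far less, and the unit may be wrong. Flat cultures 2 and 4 carried the label of the de Bruijn laboratory, whereas flat cultures 1 and 3 and the reaggregates carried no label of this kind, and passages of a single line limit how far the values reach beyond it. Reaggregates were taken apart with collagenase and dispase before RNA extraction, and no such step is described for the flat cultures, so that culture form and dissociation cannot be told apart.

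Values are RPM, reads on genes scaled to the same total in each library. With the commonest value above 0 taken as 1 read, libraries held between 7.35 and 9.43 M reads on genes. A count of 3 reads then equals at least 0.318 and at most 0.408 RPM, and this limit accounts for counting error alone. Of values above 0 and up to 10 reads, between 38.9% and 43.5% per library lay within 0.05 of a whole read. Read numbers given here are therefore estimates. Fold changes are differences of mean log2(RPM + 0.5) between 6 reaggregates and 4 flat cultures, a scale that understates changes of low genes. A gene was called at a fold change of at least 2 with a limma p, adjusted over 16933 genes tested, of at most 0.05. Reaggregates 1 and 2, 3 and 4, and 5 and 6 resembled each other within each pair, and although the study's methods mention passage number as a source of variation, nothing states which libraries share a passage or culture, so p-values measure only the spread between these libraries. In bulk RNA, fewer cells expressing a gene and less RNA per cell cannot be told apart.

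FGF ligands are secreted proteins that bind, together with heparan sulfate, to receptor tyrosine kinases on the cell surface. Active receptors signal through adaptors, RAS and the kinase ERK, which induces ETS transcription factors and also the inhibitors of the pathway itself. Sprouty proteins block the signal upstream of ERK, and the phosphatase encoded by Dusp6 removes phosphate from ERK. In stromal tissue the pathway is known for its part in growth of mesenchymal cells and in signalling to neighbouring cells.

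Of the 8 members that passed the filter of more than 0.5 RPM in at least 1 library, 2 were down-regulated in reaggregates, Spry4 and Dusp6, and 0 were up-regulated. Among all genes tested, 13.8% were called in either direction, 6.53% down and 7.32% up. Without adjustment, limma gave 3 of the 8 members a p under 0.05 in the downward direction and 0 in the upward direction, where the shares of all genes tested were 22.5% and 20.8%. The median log2 fold change was −0.51 over the 8 members and 0.04 over all genes tested. Only Spry4 and Dusp6 had groups that did not overlap in RPM, which held for 19.1% of all genes tested and, with reaggregates lower, for 11.4%. For Spry4 the margin was too small to be resolved at this depth. With each pair of consecutive reaggregates averaged to 1 sample, limma called 0 members, against 2.53% of all genes called down and 1.84% up.

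**Figure D1:**
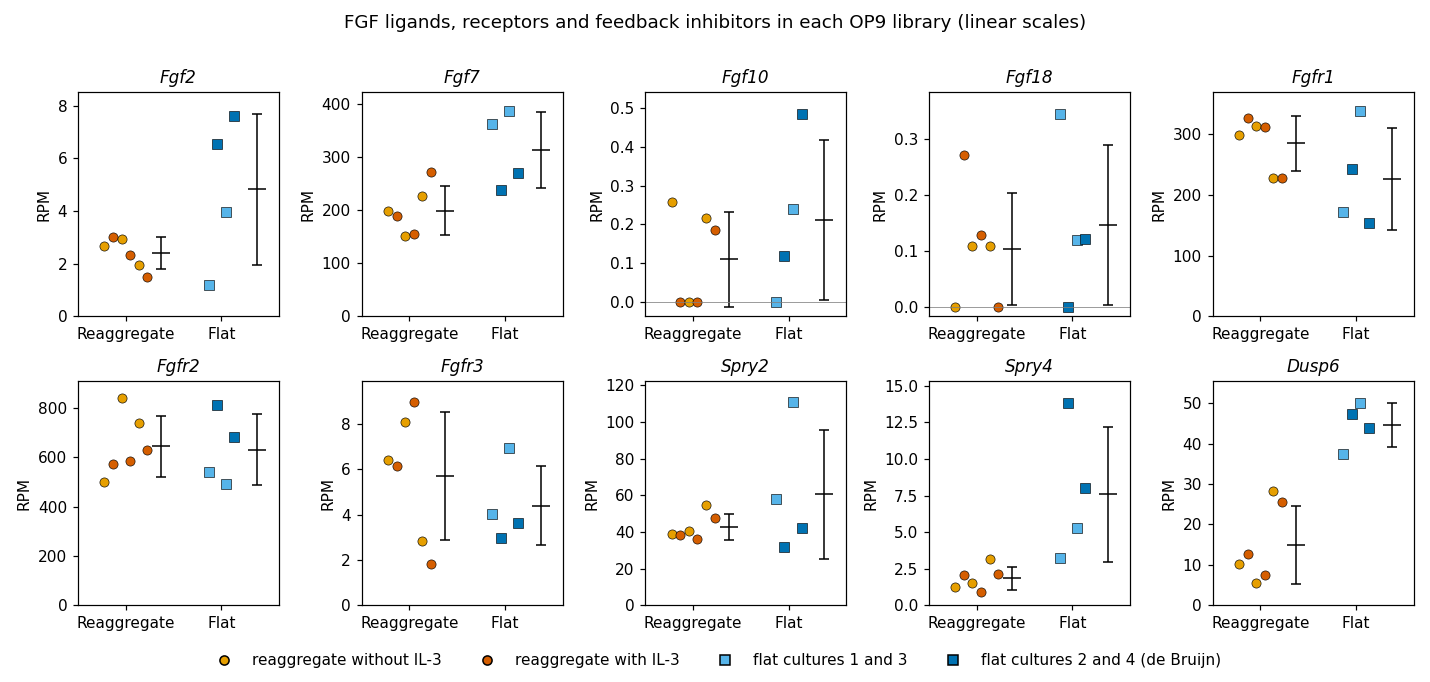
RPM (vertical axis, linear, a scale of its own in each panel) of the 10 members in each library; circles are reaggregates (light orange without and dark orange with IL-3), squares are flat cultures (light blue 1 and 3, dark blue 2 and 4), and the bar beside them gives mean ± SD (n = 6 and n = 4). For Dusp6 the reaggregates reach 28.2 RPM at most and the flat cultures start at 37.5 RPM, whereas both groups of Fgfr2 span similar ranges.

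Fgf7, which encodes keratinocyte growth factor, a ligand that mesenchymal cells release to act on epithelial cells, was by far the most abundant of the ligands. It lay at 199 and 188 RPM in reaggregates 1 and 2, at 151 and 155 RPM in 3 and 4, and at 227 and 272 RPM in 5 and 6. Flat cultures 1 to 4 had 362, 237, 386 and 270 RPM. Reaggregates 3 and 4 were the lowest libraries and flat cultures 1 and 3 the highest, and reaggregate 6 exceeded flat cultures 2 and 4, so the groups overlapped. The log2 fold change was −0.66 (SE 0.203, limma adjusted p = 0.0316), below the fold required for a call, and the exact two-sided permutation test over 210 assignments of the 10 libraries gave p = 0.019. Here and below, the permutation test takes consecutive reaggregates as independent and was not run on pair means, so its p may be too small. The adjusted p was 0.151 with each pair of reaggregates averaged and ranged from 0.0178 to 0.190 over the settings tried.

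Fgf2, a ligand that acts on mesenchymal cells and lacks a classical signal peptide, was a low transcript. Its values were 2.68 and 3.02 RPM in reaggregates 1 and 2, 2.95 and 2.33 RPM in 3 and 4, and 1.94 and 1.49 RPM in 5 and 6. In flat cultures 1 to 4 they were 1.19, 6.55, 3.96 and 7.62 RPM. Flat culture 1 was the lowest of all libraries and flat cultures 2 and 4 the highest. The log2 fold change was −0.68 (SE 0.397, limma adjusted p = 0.206; exact permutation p = 0.157), with a 95% interval from −1.55 to 0.19. Without flat culture 1 the value was −1.16 (adjusted p = 0.0147), and against flat cultures 2 and 4 alone it was −1.41 (adjusted p = 0.00211), both past the thresholds for a call. Against flat cultures 1 and 3 alone, which had 1.19 and 3.96 RPM, it was 0.05 (adjusted p = 0.937). The size of the difference thus depended on which flat cultures were used, and over the settings tried the adjusted p ranged from 0.00211 to 0.937.

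The Fgf2 values have a further limit. Fgf2 lies on the plus strand at chr3:37211441-37304299 (NCBIM37), and 242 of its 1802 exonic bases are also exonic in Nudt6, on the opposite strand at chr3:37303832-37319133. The study's methods name the library kit and the summing of reads that overlap each gene and mention no step that uses the strand, so reads in this overlap cannot be told apart. Nudt6, an antisense neighbour that encodes a nudix hydrolase, had 50.7 and 43.9 RPM in flat cultures 2 and 4, 10.5 and 11.1 RPM in flat cultures 1 and 3, and between 5.71 and 12.9 RPM in reaggregates. It was down-regulated in reaggregates (log2 fold change −1.35, SE 0.460, limma adjusted p = 0.0456), with overlapping groups, an adjusted p of 0.195 with pairs averaged, and like Fgf2 it was high in flat cultures 2 and 4. Its part in the Fgf2 values was not tested, nor was that of Cetn4 and Bbs12, which share 55 and 32 exonic bases with Fgf2.

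Fgf10 and Fgf18 did not pass the filter and were not tested in the comparison as reported. With no filter, where 25088 genes were tested, the members called were Dusp6 and Spry4 only. Fgf10, a mesenchymal ligand required for limb and lung outgrowth, was listed at 0 in reaggregates 2, 3 and 4 and in flat culture 1. It had 0.257, 0.217 and 0.185 RPM in reaggregates 1, 5 and 6, and 0.119, 0.24 and 0.486 RPM in flat cultures 2, 3 and 4, the highest of these corresponding to about 4 reads. Fgf18, a ligand known for its role in cartilage and bone, was listed at 0 in reaggregates 1 and 6 and in flat culture 2. In reaggregates 2 to 5 its values were 0.272, 0.109, 0.128 and 0.108 RPM, while flat cultures 1, 3 and 4 had 0.345, 0.12 and 0.121 RPM, at most about 3 reads. The groups overlapped for both genes, and how large a difference could be seen at these depths was not tested.

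Per kilobase of exon, Fgf7 had a mean of 61.2 ± 14.1 RPM per kb in reaggregates and 96.6 ± 22.0 RPM per kb in flat cultures (SD, n = 6 and n = 4). Fgf2 had 1.33 ± 0.334 and 2.68 ± 1.59 RPM per kb in the same groups. Within a library, the level of Fgf7 per kb was between 19.7 and 169 times that of Fgf2, the extremes being flat cultures 4 and 1. The order of these ligands was thus the same in each of the 10 libraries. Fgf10 and Fgf18 lay below both in each library, and their order relative to each other was not resolved at this depth.

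Among the receptors, Fgfr1, the form typical of mesenchymal cells, had 298 and 327 RPM in reaggregates 1 and 2, 314 and 312 RPM in 3 and 4, and 228 RPM in both 5 and 6. In flat cultures 1 to 4 it had 171, 242, 338 and 153 RPM. Flat culture 3 was the highest of all libraries and flat cultures 1 and 4 the lowest, so the groups overlapped. The log2 fold change was 0.39 (SE 0.222, limma adjusted p = 0.200; exact permutation p = 0.152), with a 95% interval from −0.10 to 0.87. Over the settings tried it lay between 0.22 (without flat culture 4) and 0.60 (without flat culture 3), with adjusted p from 0.0250 to 0.570, and was never past the fold required for a call.

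Fgfr3, a receptor that restrains growth of cartilage, was low. It had 6.41 and 6.13 RPM in reaggregates 1 and 2, 8.06 and 8.96 RPM in 3 and 4, and 2.82 and 1.81 RPM in 5 and 6. Flat cultures 1 to 4 had 4.03, 2.98, 6.95 and 3.64 RPM. Both extremes were reaggregates, with 3 and 4 at the top and 5 and 6 at the bottom, and the flat cultures fell between. With a log2 fold change of 0.23 (SE 0.410; 95% interval from −0.66 to 1.13), the limma adjusted p was 0.679 and the exact permutation p 0.6. The value was 0.54 against flat cultures 2 and 4 alone and −0.07 against flat cultures 1 and 3 alone. Leaving out 1 library gave values between 0.08 (without reaggregate 4) and 0.49 (without reaggregate 6).

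Fgfr2, whose splice forms bind either Fgf7 and Fgf10 or a wider range of ligands, was listed at 501 and 571 RPM in reaggregates 1 and 2, 839 and 585 RPM in 3 and 4, and 740 and 630 RPM in 5 and 6. Flat cultures 1 to 4 had 541, 811, 491 and 683 RPM. High and low libraries occurred in both groups, and the log2 fold change was 0.04 (SE 0.196, limma adjusted p = 0.900; exact permutation p = 0.852), with a 95% interval from −0.39 to 0.46. The value was −0.23 against flat cultures 2 and 4 alone and 0.30 against 1 and 3 alone (limma adjusted p = 0.371 and 0.329). Gene-level values do not separate the splice forms. Fgfr2 was also the 1 member tested whose largest difference within a pair of consecutive reaggregates, 0.52 on the log2 scale, exceeded the range of the pair means, 0.39.

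The pattern of Fgfr2 over libraries differed from that of the other members. The genes most like it among 11655 genes with a mean of at least 5 RPM were Gphn, AC124346.1 and AL928940.1, with Pearson's r of 0.981, 0.976 and 0.976 over the 10 libraries. Gphn encodes gephyrin, a scaffold of inhibitory synapses and an enzyme of cofactor synthesis, and had 779 RPM in reaggregate 3 against 491 RPM in reaggregate 4, the same order as Fgfr2. The 5 entries named as copies of a mouse microRNA, mir-2135, which were looked at after the values were seen, had r between 0.924 and 0.949 with Fgfr2. Among the members, the highest r of Fgfr2 was 0.315, for Spry4, and the lowest was −0.47, for Spry2. The members are far fewer than the 11655 genes, so the highest values of the 2 sets cannot be compared. A close gene among the 11655 was not particular to Fgfr2, since Dusp6 and Fgfr1 had genes at r of 0.984 and 0.977. In the submitters' quantification, reads that mapped to several places were divided among genes in proportion to their uniquely mapped reads. Of 6780 words of 31 bases in the annotated exons of Fgfr2, 0 occurred elsewhere in the NCBIM37 assembly. Over the whole span of the gene, 2.14% of 104267 such words were repeated, and 1128 had over 100 copies. These exons and this span leave out transcripts that read through into neighbouring genes. They also come from another annotation than the one the submitters counted on. The word counts therefore need not cover all sequence whose reads were counted as Fgfr2. What the Fgfr2 values share with these entries was not tested, and the Fgfr2 levels rest on how reads were assigned to it.

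With this limit, Fgfr2 had 86.8 ± 16.7 RPM per kb in reaggregates and 85.1 ± 19.5 RPM per kb in flat cultures (SD, n = 6 and n = 4). Fgfr1 had 35.3 ± 5.55 and 28.0 ± 10.4 RPM per kb, and Fgfr3 had 0.828 ± 0.413 and 0.640 ± 0.255 RPM per kb. Fgfr1 shares 761 exonic bases with a 2nd entry of the same name and strand, and 125 with Gm16159 on the opposite strand. The part of these overlaps in the Fgfr1 levels was not tested. Within a library, the level of Fgfr2 per kb was between 1.58 and 4.85 times that of Fgfr1, and Fgfr1 was between 29.7 and 108 times Fgfr3. Fgfr1 was above Fgfr3 in each of the 10 libraries. The listed values put Fgfr2 above Fgfr1 in each as well, but since they may include reads from other sequences, which was not tested, they may be too high, and the order of Fgfr2 and Fgfr1 is not settled by them.

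Dusp6, the ERK phosphatase and a transcript that ERK signalling induces, had 10.1 and 12.6 RPM in reaggregates 1 and 2, 5.44 and 7.62 RPM in 3 and 4, and 28.2 and 25.6 RPM in 5 and 6. Flat cultures 1 to 4 had 37.5, 47.3, 50 and 43.8 RPM. All 6 reaggregates lay below all 4 flat cultures, reaggregates 5 and 6 coming closest to them. The difference was 3.43-fold, and Dusp6 was called as down-regulated (log2 fold change −1.78, SE 0.408, limma adjusted p = 0.00889; exact permutation p = 0.00952). With each pair of reaggregates averaged, the log2 fold change was the same but the call was lost (limma adjusted p = 0.0504).

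The reaggregates differed among themselves in Dusp6 more than in any other member tested. The pair means were 11.3 RPM for 1 and 2, 6.53 RPM for 3 and 4, and 26.9 RPM for 5 and 6, a range of 1.98 on the log2 scale, while libraries within a pair differed by at most 0.45. The flat cultures were even, at 44.7 ± 5.40 RPM (SD, n = 4), and flat cultures 2 and 4 did not stand apart from 1 and 3 (log2 difference 0.07, SE 0.284, limma adjusted p = 0.911).

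Spry4, which encodes a sprouty protein and lies on the minus strand at chr18:38745922-38760922 (NCBIM37), was scarcer and was also lower in reaggregates. It had 1.28 and 2.04 RPM in reaggregates 1 and 2, 1.52 and 0.896 RPM in 3 and 4, and 3.15 and 2.12 RPM in 5 and 6. Flat cultures 1 to 4 had 3.22, 13.8, 5.27 and 8.02 RPM. All reaggregates were below all flat cultures in RPM, and flat cultures 2 and 4 were the highest. Reaggregate 5 and flat culture 1 lay next to each other, at about 29.2 and 28 reads, so their order was not resolved at this depth. The difference was 3.21-fold, and Spry4 was called as down-regulated (log2 fold change −1.68, SE 0.378, limma adjusted p = 0.00800; exact permutation p = 0.00476, the smallest that this test can give with all libraries taken as independent). This call, too, was lost with each pair of reaggregates averaged, at the same log2 fold change (limma adjusted p = 0.0762). The values correspond to between 7 and about 29.2 reads in reaggregates and between 28 and 116 reads in flat cultures.

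Spry2, the more abundant sprouty gene, did not follow this pattern. It had 38.7 and 38.1 RPM in reaggregates 1 and 2, 40.8 and 36 RPM in 3 and 4, and 54.6 and 47.4 RPM in 5 and 6. Flat cultures 1 to 4 had 57.8, 31.6, 111 and 42.2 RPM. Flat culture 3 was far above all other libraries and flat culture 2 below all of them, so the groups overlapped. The log2 fold change was −0.36 (SE 0.290, limma adjusted p = 0.359; exact permutation p = 0.343), with a 95% interval from −0.99 to 0.28. This value rested on flat culture 3, without which it was −0.01 (adjusted p = 0.960). It was −0.92 against flat cultures 1 and 3 alone (adjusted p = 0.0376) and 0.20 against flat cultures 2 and 4 alone (adjusted p = 0.387), and the adjusted p ranged from 0.0376 to 0.960 over the settings tried. Per kb, Spry2 had 20.4 ± 3.39 RPM in reaggregates, Dusp6 5.34 ± 3.44 RPM and Spry4 0.4 ± 0.173 RPM (SD, n = 6), and in flat cultures the same order held with 29.1 ± 16.9, 16 ± 1.93 and 1.65 ± 1 RPM (SD, n = 4). In flat culture 2, however, Dusp6 exceeded Spry2 per kb (16.9 against 15.2 RPM).

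The calls for Dusp6 and Spry4 held when any 1 library was left out but not under each setting tried. With each pair of consecutive reaggregates averaged to 1 sample, 0 of 8 members were called by limma, with log2 fold changes of −1.78 (adjusted p = 0.0504) and −1.68 (adjusted p = 0.0762) for Dusp6 and Spry4, and 3 members, all lower in reaggregates, had an unadjusted p under 0.05. In that comparison 2.53% of all genes were called down and 14.1% were lower at an unadjusted p under 0.05. With only reaggregates without IL-3, limma called 0 members, with values of −1.88 for Dusp6 (adjusted p = 0.0554) and −1.60 for Spry4 (adjusted p = 0.0898), and 3 were lower at an unadjusted p under 0.05, against 4.84% of all genes called and 14.4% lower at an unadjusted p under 0.05. With only those given IL-3, where 3.76% of all genes were called, Dusp6 was called (−1.68, adjusted p = 0.0443) and Spry4 was not (−1.77, adjusted p = 0.0774). Against flat cultures 2 and 4 alone, Dusp6, Spry4 and Fgf2 were called, with 25.7% of all genes called in either direction. Against flat cultures 1 and 3 alone, limma called 0 members and 4 were lower at an unadjusted p under 0.05, with 9.87% of all genes called and 21.1% lower at an unadjusted p under 0.05, and the values were −1.74 for Dusp6 (limma adjusted p = 0.0700) and −1.06 for Spry4 (limma adjusted p = 0.0778). Over the settings tried, the adjusted p ranged from 0.00413 to 0.0700 for Dusp6 and from 0.000800 to 0.0898 for Spry4, and both log2 fold changes were negative in each.

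**Figure D2:**
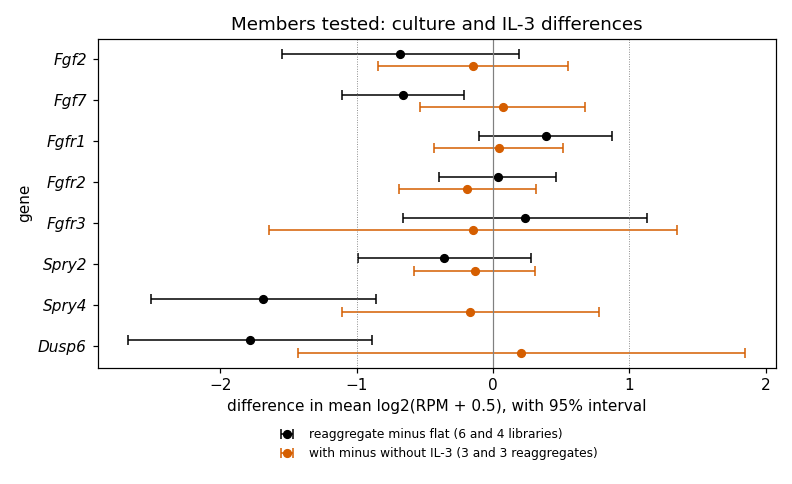
Difference in mean log2(RPM + 0.5) with its 95% interval (horizontal axis) for the 8 members tested (vertical axis), between reaggregates and flat cultures (black) and between reaggregates with and without IL-3, unpaired (orange); dotted lines mark a fold change of 2. The intervals of Dusp6, Spry4 and Fgf7 between cultures lie below 0, and each interval for IL-3 spans 0.

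IL-3 did not give a call in any member. Within the 6 reaggregates, limma called 0 of 16933 genes, a share of 0%, with 68 at an unadjusted p under 0.05, and 0 with consecutive reaggregates as a block, with 564 at an unadjusted p under 0.05. Among the 8 members, 0 had an unadjusted p under 0.05 in either of these comparisons. Their log2 differences with minus without IL-3 ran from −0.19 for Fgfr2 to 0.21 for Dusp6. With consecutive reaggregates as a block, which pairs each library given IL-3 with the untreated one it resembled, the 95% interval for Dusp6 ran from −0.14 to 0.56, against −1.43 to 1.84 without the block. The differences within pairs were 0.31, 0.45 and −0.14 for Dusp6. Spry2 was lower with IL-3 in 3 of 3 pairs, by differences of −0.02, −0.18 and −0.20, with a mean of −0.13 and a blocked interval from −0.30 to 0.03 (limma adjusted p = 0.982, and 1 in the other settings tried). No blocked interval of the 8 members reached a fold of 2, the widest being that of Spry4, from −0.79 to 0.46. The labels do not state that these libraries were paired.

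Between flat cultures 2 and 4 and flat cultures 1 and 3, limma called 0 of 8 members, against 5.70% of all genes in either direction, and 3 members had an unadjusted p under 0.05, as did 23.0% of all genes. With quantile normalization, under which 10.4% of all genes were called, 1 member was called, Fgf2 (log2 difference 1.69, adjusted p = 0.0483), against 1.46 (SE 0.548, adjusted p = 0.196) without it. Spry4 had a log2 difference of 1.25 (SE 0.451, adjusted p = 0.181) and Spry2 of −1.12 (SE 0.398, adjusted p = 0.175). Neither difference passed the test.

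The genes with patterns most like other members were found in the same way as for Fgfr2. For Dusp6 they were AC153821.1, Efhd2 and Fth1, with r of 0.984, 0.972 and 0.965, and the member most like Dusp6 was Fgf7 (r = 0.873). Fth1, which encodes the heavy chain of ferritin, had between 1560 and 2840 RPM in reaggregates, and its flat cultures lay between 2800 and 3220 RPM. Fgf7 was most like Prkg2, 1300014I06Rik and Rpa2 (r of 0.972, 0.963 and 0.962), Fgfr1 most like Ipo4, Atp11a and Hnrnpul1 (0.977, 0.972 and 0.968), and Fgfr3 most like Rab24, Plekha5 and Znhit6 (0.972, 0.972 and 0.960). For Spry2 the closest genes, Arrdc4, Prune2 and Cd14, reached only 0.895, 0.893 and 0.892. The lowest r with another member was −0.62 between Dusp6 and Fgfr3, −0.58 between Fgfr1 and Dusp6, and −0.47 between Fgf7 and Fgfr1. These values describe 10 libraries that include pairs of consecutive reaggregates and the difference between cultures.

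Of 62 other genes tested in 6 lists of the pathway, 7 were called, 11.3% against 13.8% of all genes, so that their share was near that of all genes. Of 9 further feedback inhibitors tested, 1 was up-regulated and 0 down-regulated, the latter with 2 at an unadjusted p under 0.05 (limma). The gene called, Il17rd, a membrane inhibitor of FGF receptors, ranged from 104 to 215 RPM in reaggregates and was at 20.8, 2.27, 64.1 and 0.729 RPM in flat cultures 1 to 4 (log2 fold change 4.13, SE 0.890, adjusted p = 0.00671), the direction opposite to that of Spry4 and Dusp6. Like theirs, this call was lost with pairs averaged (adjusted p = 0.0818). The list's calls changed with the source of the flat cultures, and the genes other than Il17rd in these calls are named after their values were seen. Against flat cultures 2 and 4 alone, 2 were called up, Il17rd (6.30) and Spry1 (1.90), and 2 down, Dusp5 (−2.96) and Dusp9 (−2.62), where 25.7% of all genes were called. Against 1 and 3 alone, Il17rd (1.97) and Dusp4 (1.08) were called up and limma called 0 down, with 0 lower at an unadjusted p under 0.05, where 9.87% of all genes were called. Between the flat cultures, 3 of the 9 were called, Dusp5 (3.37) and Dusp9 (2.52) higher and Il17rd (−4.33) lower in 2 and 4, where 5.70% of all genes were called. Spred1, with the highest RPM of this list averaged over the 10 libraries though not in each of them, had a log2 fold change of 0.08 (SE 0.174, adjusted p = 0.735).

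Of the 3 ETS factors that FGF signalling induces, 1 was down-regulated and 0 up-regulated. Over all genes, 6.53% were called down and 7.32% up, shares that apply to the lists below too. Etv5 lay between 13.9 and 19.2 RPM in reaggregates and at 32.6, 50.5, 48.8 and 36.3 RPM in flat cultures 1 to 4, without overlap (log2 fold change −1.25, SE 0.169, limma adjusted p = 0.000590). Unlike Spry4 and Dusp6, it remained called with pairs averaged (adjusted p = 0.0265). Etv1 and Etv4, named after their values were seen, were not called (log2 fold change 0.82, SE 0.561, limma adjusted p = 0.276, and −0.19, SE 0.599, limma adjusted p = 0.83). Both were lower in flat cultures 2 and 4 than in 1 and 3 (log2 difference −2.71, adjusted p = 0.0203, and −2.72, adjusted p = 0.0224). Against flat cultures 2 and 4 alone, both were called up (2.18 and 1.18), and against 1 and 3 alone Etv4 was called down (−1.54) and Etv1 was not called (−0.53). Among 6 further genes of the FGF family and 4 further receptors or co-receptors tested, limma called 0. In each list 1 had an unadjusted p under 0.05 (limma), as had 43.3% of all genes. The family list includes Fgf11, Fgf13 and Fgf14, named for this reason after their values were seen, which encode intracellular homologues and not secreted ligands. Fgf14, whose RPM averaged over all libraries was the highest of the list although Fgf11 was higher over the reaggregates and Fgf1 over the flat cultures, was between 0.765 and 2.07 RPM. The list's 1 gene at an unadjusted p under 0.05 was Fgf11 (log2 fold change 0.96, SE 0.378, adjusted p = 0.0755). Fgfrl1, a receptor without a kinase domain, was at 195 and 210 RPM in flat cultures 2 and 4 and between 56 and 75.3 RPM elsewhere. It was called down against flat cultures 2 and 4 alone (log2 fold change −1.71, limma adjusted p = 4.8e-06). Against 1 and 3 alone it was not called (−0.20, limma adjusted p = 0.281). Between the flat cultures, where 5.70% of all genes were called, it was called higher in 2 and 4 (log2 difference 1.51, limma adjusted p = 0.0370). Of 20 adaptor and RAS-ERK genes tested, 2 were up-regulated, Gab1 (log2 fold change 1.09, SE 0.213, adjusted p = 0.00432) and Plcg1 (1.63, SE 0.337, adjusted p = 0.00547). Limma called 0 down, with 4 higher and 3 lower at an unadjusted p under 0.05, against 20.8% and 22.5% of all genes. Against flat cultures 2 and 4 alone, where 25.7% of all genes were called, 3 were called up and 1 down. Against 1 and 3 alone, where 9.87% of all genes were called, 1 was called up and 0 down. Shc1, with the highest RPM averaged over all libraries but below Plcg1 over the reaggregates, was not called (−0.12, SE 0.197, adjusted p = 0.665). Of 20 heparan sulfate and FGF-binding genes tested, 3 were up-regulated, the syndecan Sdc2 (2.41, SE 0.474, adjusted p = 0.00435), the sulfatase Sulf2 (2.04, SE 0.319, adjusted p = 0.00129) and the glypican Gpc6 (1.96, SE 0.428, adjusted p = 0.00718). Limma called 0 of this list down, with 8 higher and 1 lower at an unadjusted p under 0.05, against 20.8% and 22.5% of all genes. Against flat cultures 2 and 4 alone, 6 were called up and 2 down, and against 1 and 3 alone 3 up and 0 down, where 25.7% and 9.87% of all genes were called. Sulf1, named after its values were seen, was called down against 2 and 4 alone (−1.8) and up against 1 and 3 alone (1.38). With pairs averaged, Sulf2 was called (adjusted p = 0.0380), but Gab1, Plcg1, Sdc2 and Gpc6 were not (adjusted p = 0.0737, 0.0644, 0.0621 and 0.0873).

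Further lists are given beside the members by their counts. All 11 proliferation genes tested were down-regulated in reaggregates, against 6.53% of all genes, with a median log2 fold change of −1.95, among them Aurka (−2.75), Ccnb1 (−2.71), Ccna2 (−2.32), Plk1 (−2.28), Mcm5 (−1.95), Bub1 (−2.15) and Top2a (−1.75), the last with the highest RPM of the list in each library. Of 14 immediate early genes tested, 7 were up-regulated, against 7.32% of all genes, with a median of 1.22, led by Fosb (4.19), Atf3 (4.09), Nr4a1 (3.98), Egr3 (3.36), Fos (2.53) and Egr2 (1.94), while Egr1, with the highest RPM averaged over all libraries, was not called (0.90, SE 0.444, limma adjusted p = 0.140). With pairs averaged, 7 of the proliferation genes were called down, against 2.53% of all genes, and 3 of the immediate early genes were called up, against 1.84%. Against flat cultures 2 and 4 alone, 7 proliferation genes were called down and 8 immediate early genes up, where 25.7% of all genes were called in either direction. Against 1 and 3 alone these counts were 11 and 3, where 9.87% of all genes were called. The mean log2 level of the immediate early genes was 4.47, 5.11 and 5.32 in flat cultures 1, 2 and 4, but 7.02 in flat culture 3, within the range of 6.96 to 7.40 in reaggregates. Flat culture 3 was also the highest library for 4 members, Fgf7, Fgfr1, Spry2 and Dusp6. The part of these gene groups in the member values was not tested.

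Markers fitted a stromal line. Over all genes, the shares called up and down were 7.32% and 6.53%, and with pairs averaged 1.84% and 2.53%. All 8 stromal markers were tested, of which 5 were up-regulated in reaggregates, Pdgfra (log2 fold change 1.58), Pdgfrb (1.74), Col1a1 (1.93), Col1a2 (1.83) and Vcam1 (1.12), and 1 was down-regulated, Kitl (−1.01), while with pairs averaged 2 were called up and 0 down, with 1 lower at an unadjusted p under 0.05 (limma). Col1a2, the highest in RPM except in flat cultures 2 and 4, lay between 7610 and 11300 RPM in reaggregates, and its flat cultures lay between 1190 and 6340 RPM. The haematopoietic marker Ptprc and the epithelial marker Epcam were listed at 0 in all libraries. Summed over each list, haematopoietic markers had between 2.39 and 9.62 RPM, endothelial markers at most 1.09 RPM, and epithelial markers at most 0.927 RPM. Averaged over all libraries, the highest genes of these lists were Cd68, Pecam1 and Krt14. Of 6 adipocyte markers, 3 were down-regulated, Fabp4 (−2.37), Pparg (−1.67) and Cebpa (−1.36), of which limma called 0 with pairs averaged (adjusted p = 0.185, 0.178 and 0.136), with 3 at an unadjusted p under 0.05. Their list, in which Lpl was highest except in flat cultures 2 and 4, where Fabp4 was, summed to 1385 and 1457 RPM in flat cultures 2 and 4, to 370 and 528 RPM in flat cultures 1 and 3, and to between 255 and 691 RPM in reaggregates. Flat cultures 2 and 4 were also those with the highest Fgf2 and Spry4 values. Of 4 osteochondral markers tested, 1 was down-regulated, Col2a1 (−2.06), which was the highest of them in each library, with between 200 and 286 RPM in reaggregates and between 777 and 1520 RPM in flat cultures. The part of these markers in the member values was not tested.

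In NCBIM37, Fgf7 (plus strand) lies at chr2:125860394-125916921, Fgf10 (plus strand) at chr13:119458598-119580922 and Fgf18 (minus strand) at chr11:33017430-33047400. The receptors lie at chr8:26624126-26686186 (Fgfr1, plus strand), chr7:137306026-137410322 (Fgfr2, minus strand) and chr5:34064373-34079716 (Fgfr3, plus strand), the span of Fgfr2 leaving out transcripts that read through into neighbouring genes. Spry2 lies at chr14:106291166-106296036 (minus strand) and Dusp6 at chr10:98725865-98730122 (plus strand), so that these members are spread over different chromosomes.

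Promoters from RefSeq (build GRCm38.p6), each covering 250 bases before to 50 bases after a start of transcription, matched 8 of the 10 members by symbol, all but Fgfr1 and Spry4. They were searched on both strands for CCGGAA, a sequence that ETS factors bind, for TGACGTCA, the cyclic AMP response element, and for the CArG box. Of all 32851 promoters of this length, 14.9% held CCGGAA, 1.79% held TGACGTCA and 1.63% held the CArG box. Among the 8 members matched, 1 held CCGGAA, Spry2, and 0 held TGACGTCA or the CArG box. The promoters of the feedback inhibitors Spry2 and Dusp6, of which the latter was down-regulated, and both promoters of Etv5, which was down-regulated too, are shown 5′ to 3′ on the strand of the gene, with CCGGAA in capitals. The match in Spry2 spans bases 284 to 289, and the other promoters shown do not contain these letters. The promoters shown were chosen after the matches were seen. Dusp6, Etv5 and Il17rd were chosen first, and Spry2 then replaced Il17rd because Spry2 held a match. The promoters of Dusp6 and Etv5 held none of the 3 motifs. A match describes the letters of a window only. Spry2 is at chr14:105896770-105897069 (minus strand), Dusp6 at chr10:99262981-99263280 (plus strand), and Etv5 at chr16:22439521-22439820 and chr16:22438319-22438618 (minus strand).
Spry2: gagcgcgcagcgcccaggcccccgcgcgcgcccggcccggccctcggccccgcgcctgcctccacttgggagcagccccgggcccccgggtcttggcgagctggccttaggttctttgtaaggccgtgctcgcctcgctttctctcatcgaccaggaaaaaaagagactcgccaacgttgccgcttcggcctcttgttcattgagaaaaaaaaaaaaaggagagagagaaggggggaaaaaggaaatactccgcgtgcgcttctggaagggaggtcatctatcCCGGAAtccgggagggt
Dusp6: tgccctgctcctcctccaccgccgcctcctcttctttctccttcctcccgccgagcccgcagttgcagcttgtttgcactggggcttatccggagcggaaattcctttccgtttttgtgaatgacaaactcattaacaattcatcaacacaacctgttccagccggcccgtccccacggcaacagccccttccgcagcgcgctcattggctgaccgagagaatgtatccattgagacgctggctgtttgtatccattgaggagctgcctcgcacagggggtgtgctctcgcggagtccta
Etv5, upstream start: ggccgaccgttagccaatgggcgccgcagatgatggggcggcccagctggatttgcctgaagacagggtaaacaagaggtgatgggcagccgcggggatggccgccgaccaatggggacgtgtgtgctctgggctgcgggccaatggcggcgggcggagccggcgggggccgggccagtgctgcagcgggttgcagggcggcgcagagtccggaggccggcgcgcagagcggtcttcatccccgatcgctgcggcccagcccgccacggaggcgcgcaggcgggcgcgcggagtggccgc
Etv5, downstream start: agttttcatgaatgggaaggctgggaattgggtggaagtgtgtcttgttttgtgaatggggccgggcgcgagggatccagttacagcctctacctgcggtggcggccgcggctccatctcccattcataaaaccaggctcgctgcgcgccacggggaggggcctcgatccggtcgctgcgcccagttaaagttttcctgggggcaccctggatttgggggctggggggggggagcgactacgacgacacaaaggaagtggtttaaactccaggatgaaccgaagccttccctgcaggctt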

How the data were processed

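RNA-seq values of 26888 genes in 10 libraries of OP9 cells were taken from the deposited table, in which the authors give RPM, reads on genes scaled to the same total per library. The submitters' notes name TopHat 1.2.0 for alignment and DESeq for comparison, and reads mapping to several places were divided among genes. The table also holds the authors' fold changes and adjusted p-values, which were not used. Genes above 0.5 RPM in at least 1 library (16933) were fitted on log2(RPM + 0.5) with limma 3.58.1 in R 4.3.3, by empirical Bayes with a mean-variance trend, and p-values were adjusted by Benjamini-Hochberg over all of them. Single members were also tested by exact two-sided permutation over 210 splits, which takes consecutive reaggregates as independent. The main comparison was run under 24 settings, the reported one included. The code was tested on simulated data. Levels per kb and counts of repeated words used the union of annotated exons (GENCODE, NCBIM37) without readthrough transcripts. The authors counted reads on another annotation, so exonic lengths may differ. Other steps used Python 3.11.15 and matplotlib 3.10.9. Members and lists were chosen with earlier results of these data known. Beyond the members, genes were named where they were called with a group mean of at least 1 RPM, at most 6 per list by size of change, or had the highest mean RPM of a list over the 10 libraries. For each member with a mean of at least 5 RPM, the 3 genes with the highest Pearson's r of log2(RPM + 0.5) and the lowest r among members were named. Promoters came from RefSeq (GRCm38.p6), and those printed were chosen after the motif matches were seen.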

Additional observations from a re-analysis of the deposited data

How the results depend on the processing

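Of 16933 genes, 1239 were up and 1106 down in reaggregates in the comparison as reported. Up and down genes numbered 312 and 429 with consecutive reaggregates averaged, 277 and 360 with only reaggregates with IL-3, 345 and 474 with only those without IL-3, and 2579 and 1775 against flat cultures 2 and 4. Against flat cultures 1 and 3 they numbered 627 and 1044, and with the replicate block 1884 and 1154. Leaving out each library in turn gave between 766 (without flat culture 4) and 2121 (without flat culture 3) genes up and between 815 and 1522 down for the same libraries. Members called numbered 0 with pairs averaged, 1 (Dusp6) with only reaggregates with IL-3, 0 with only those without IL-3, 0 against flat cultures 1 and 3, and between 2 and 3 when leaving out each library, the third being Fgf2 without flat culture 1. The replicate block pairs libraries by number only, and nothing states that they belong together. Between flat cultures 2 and 4 and flat cultures 1 and 3, 965 genes were called, 1763 with quantile normalization and 0 when leaving out any library, where the lone library is assumed to vary like the other pair. The causes of these changes were not tested. Depth limits Fgf10 and Fgf18, and the lowest Spry4 value rests on about 7 reads.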
